A study of Mus musculus with 6 samples.

Results

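The genes described here carry the signal of the T cell receptor (TCR) from the receptor at the membrane to the transcription factors NFAT and NF-kB. They were chosen by name, as a list of 40 genes of this pathway, from the 19938 genes that the array measured with a probe set of a single symbol. Of the 40, 38 had a probe set, and Lck and Itpr1 were not analysed here. By role the 40 comprised 30 activators, 9 negative regulators and Ptprc, whose phosphatase CD45 both activates and restrains the kinases at the receptor and which was kept apart.

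The samples were double-positive (DP) thymocytes, the T cell precursors that carry both CD4 and CD8, from mice of the C57BL/6 strain aged 3 weeks and left untreated. Hdac3 knockout (KO) mice, named LCK:Hdac3 KO in the series text, were set against wild-type (WT) mice, with 3 arrays each. Names of this form are used for deletions by a Cre recombinase under the Lck promoter, which acts in developing T cells, but no source used here gives the construct or the deleted part of Hdac3. The text says that RNA was pooled from 2 mice of each genotype and counts 3 biological replicates, but which mice went into which array is not stated. The p-values therefore measure only how far these arrays differed, and some of that may be technical.

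When a TCR binds its ligand, the kinase LCK phosphorylates motifs in the CD3 and zeta chains, and ZAP-70 docks there and phosphorylates the adaptors LAT and SLP-76. These gather phospholipase C-gamma1, exchange factors and TEC-family kinases, and the products of the phospholipase open one branch through calcium, calcineurin and NFAT and another through PKC-theta, BCL10, MALT1 and NF-kB. In DP thymocytes the strength of this signal decides between death by neglect, positive selection and deletion.

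Hdac3, a histone deacetylase of corepressor complexes, had log2 values of 8.28, 8.32 and 8.32 on the KO arrays, against 9.40, 9.42 and 9.44 on the WT arrays (log2 difference -1.12, SE 0.08). The markers of DP cells were high in both genotypes. Cd4, Cd8a and Rag1 had means of 11.23, 12.81 and 13.01 in KO and 11.23, 12.85 and 12.94 in WT, and all 8 measured DP markers lay above the array median on each array. Of the 8, Cd1d1 was lower in KO (log2 difference -0.65, limma adjusted p = 0.020) and the other 7 did not pass. Signal was compressed on the KO arrays, with interquartile ranges of 3.06 to 3.25 on the log2 scale, against 3.29 to 3.49 in WT. All 38 genes lay among the 11705 brighter of the 23410 probe sets tested, where the median log2 difference, KO minus WT, was -0.09, against 0.02 over all probe sets. Neutrophil markers were raised on KO array 2, where the log2 summed signal of 13 of them was 9.98. It was 8.29 and 8.33 for the other KO arrays and 8.10 to 8.28 for the WT arrays, and none of the 13 was called. Among markers of the double-negative stage before DP, 1 of 9 was higher and 2 were lower in KO. They were Il2ra (log2 difference 2.28, limma adjusted p = 0.0033), Cd44 (-0.66, limma adjusted p = 0.0034) and Il7r (-1.19, limma adjusted p = 0.0056), which is also the 1 called of 9 mature thymocyte markers. The summed signal of both stage lists overlapped between genotypes. It was 10.82 to 10.99 in KO and 10.65 to 11.06 in WT for the double-negative list. For the mature list it was up to 12.07 in KO and up to 12.17 in WT. Such sums add unlogged signal, so the brightest marker of a list weighs most. These were Notch1 (means 9.96 in KO and 10.04 in WT) and Ccr9 (11.78 and 11.85), so the overlap says little about cell stage. The median double-negative marker was higher on each KO array, at up to 7.31, than on any WT array, at up to 6.23. On the KO arrays this median was the value of Dtx1, whose own log2 difference was -0.09. Il2ra lay above Dtx1 on the KO arrays and below it on the WT arrays. Gene by gene, 4 of the 9 differences were positive and 5 negative, with a median of -0.08. The part of cell stage in the results below was not tested. For macrophage, B cell, NK cell, erythroid and stromal marker lists the ranges of summed signal of the 2 genotypes overlapped. For 7 B cell markers they were 8.11 to 8.30 in KO and 8.12 to 8.33 in WT. For 7 NK cell markers they were 7.28 to 7.64 in KO and 7.15 to 7.59 in WT. Cd79b (means 7.32 in KO and 7.46 in WT) weighs most in the B cell sum. Pecam1 (8.55 and 8.64) weighs most in the stromal sum, so overlap says little there too. Of 10 stromal markers, Epcam was called lower in KO (log2 difference -0.37, limma adjusted p = 0.044). All 4 measured erythroid markers had positive differences, 0.12 to 0.27, and none was called.

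Of the 38 genes, each read from its brightest probe set, 4 were higher in KO, 2 were lower and 32 did not pass (limma, Benjamini-Hochberg adjusted p under 0.05 over all probe sets). The genes that rose were the kinase gene Txk and the adaptor genes Grap2, Tespa1 and Themis, all of them activators or selection adaptors near the receptor. The lower ones were Cd247, the zeta chain of the receptor, and the brighter probe set of Dgkz, the gene of a lipid kinase that ends diacylglycerol signals. A dimmer probe set of Dgkz was called higher, so the gene as a whole has no direction here. Over all 23410 probe sets 1.75% were called higher and 4.04% lower, 5.79% in all. Among the 11705 brighter probe sets, to which these genes belong, 2.10% were called higher and 6.95% lower. In bulk samples fewer cells of a type and less RNA per cell cannot be told apart.

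**Figure D1:**
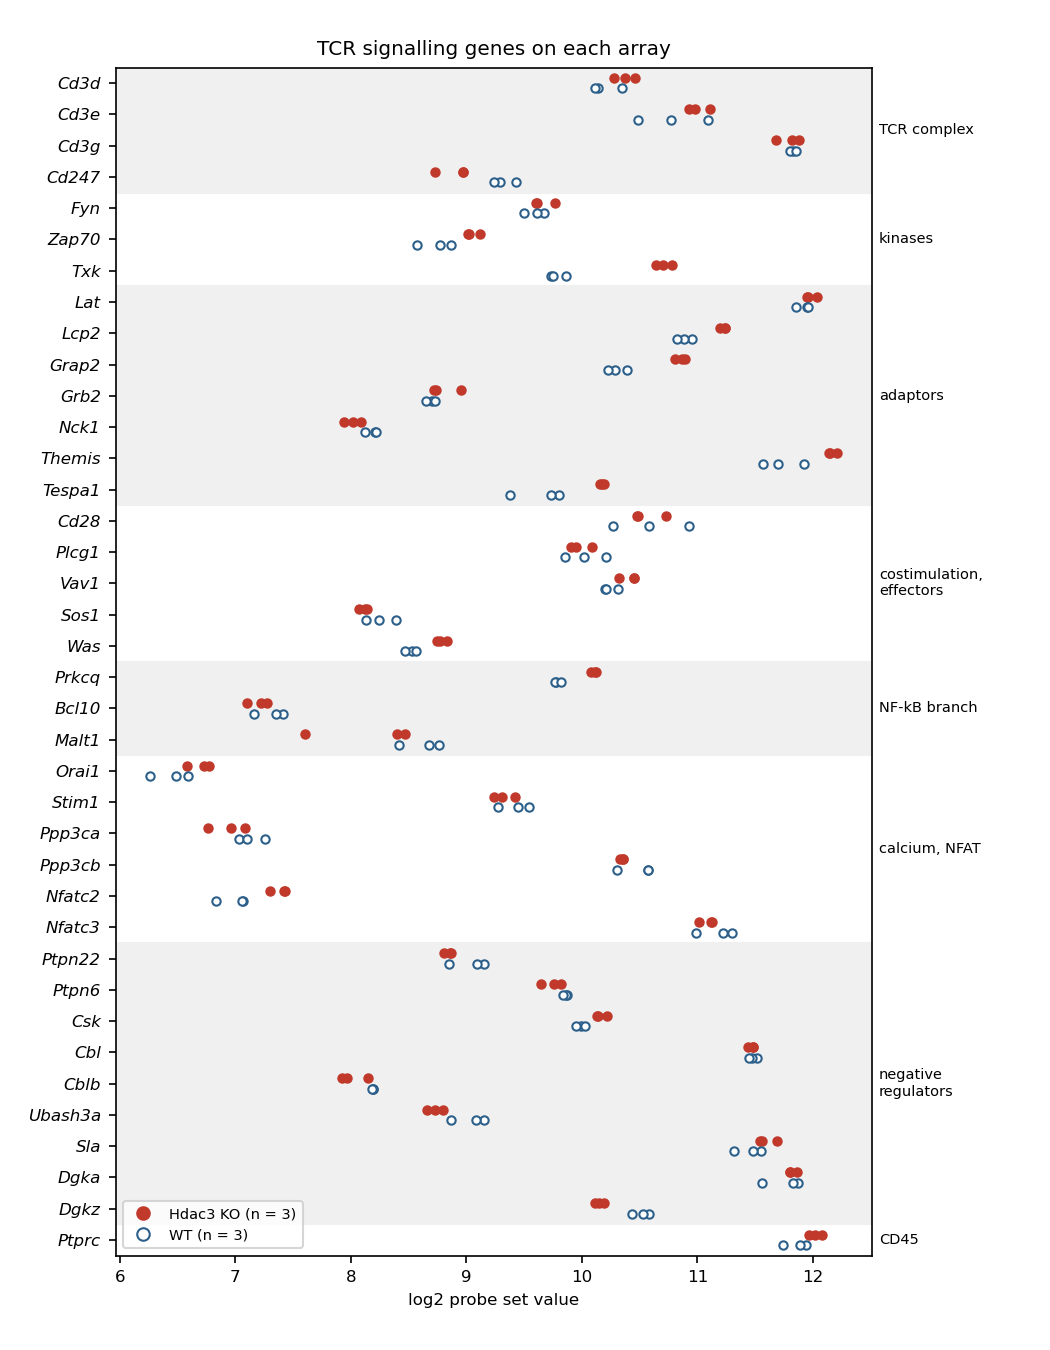
Log2 probe set value (x axis) of each of the 38 genes on the 3 KO arrays (filled) and the 3 WT arrays (open), grouped by role; levels of different genes are not comparable on this scale. The KO points of Txk, 10.64 to 10.78, lie clear of its WT points, 9.73 to 9.86, while most other genes have points of both genotypes close together.

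An annotated start is shown for each of 4 called genes, which moved the most among those with a promoter in the RefSeq table. They were the risers Txk, Grap2 and Themis and, for contrast, Cd247, which fell. The riser Tespa1 is not shown. Each line gives 250 bases before an annotated start, 5′ to 3′ on the gene's strand, in build GRCm38.p6. The Grap2 and Cd247 windows lie inside the annotated spans of their genes, which begin at 80572597 and 165779952. The Txk window overlaps the span of its gene, which ends at 72752992. For these genes the start shown is therefore not the outermost one. Capitals mark matches, on either strand, to 6 motifs: TGTGGT (RUNX), CAGNTG (E proteins), CGGAAG (ETS), CTTTGA (TCF and LEF), AGGTCA (half-site of nuclear receptors) and TGGAAA (NFAT).
Txk, chr5:72752778-72753027, minus strand: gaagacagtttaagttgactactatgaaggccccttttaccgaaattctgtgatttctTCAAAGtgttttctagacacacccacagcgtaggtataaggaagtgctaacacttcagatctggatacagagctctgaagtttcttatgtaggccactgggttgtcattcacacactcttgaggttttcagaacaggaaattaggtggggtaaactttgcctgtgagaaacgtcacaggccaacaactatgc
Grap2, chr15:80623233-80623482, plus strand: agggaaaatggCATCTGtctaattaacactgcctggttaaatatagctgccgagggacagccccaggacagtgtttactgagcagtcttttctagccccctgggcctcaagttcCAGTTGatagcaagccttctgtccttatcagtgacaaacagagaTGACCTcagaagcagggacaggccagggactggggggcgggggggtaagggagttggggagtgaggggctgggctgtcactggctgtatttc
Themis, chr10:28668110-28668359, plus strand: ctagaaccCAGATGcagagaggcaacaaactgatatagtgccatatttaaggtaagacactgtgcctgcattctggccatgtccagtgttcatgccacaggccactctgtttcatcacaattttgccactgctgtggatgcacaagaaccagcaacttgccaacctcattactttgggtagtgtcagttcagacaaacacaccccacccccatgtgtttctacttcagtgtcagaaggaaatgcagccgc
Cd247, chr1:165788431-165788680, plus strand: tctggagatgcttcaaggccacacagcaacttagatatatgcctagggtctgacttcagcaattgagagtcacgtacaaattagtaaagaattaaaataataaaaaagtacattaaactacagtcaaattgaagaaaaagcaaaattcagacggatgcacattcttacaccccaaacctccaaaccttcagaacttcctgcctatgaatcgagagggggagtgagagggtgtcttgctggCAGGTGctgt
The 3 risers shared no single motif in these windows. Grap2 had 2 E protein matches and 1 nuclear receptor half-site, Themis and Cd247 had 1 E protein match each, and Txk had 1 TCF and LEF match. For the list as a whole, 34 of the 40 genes matched the table, with 50 starts between them. An E protein match was present in 46% of these windows and in 44.8% of all 32851 windows, a RUNX match in 12% and 14%, and an ETS match in 8% and 13.6%. A TCF and LEF match was present in 16% and 13.8%, a nuclear receptor half-site in 12% and 14%, and an NFAT match in 18% and 18.6%. These shares describe letters in the windows and not binding.

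At the receptor itself, 1 of 4 chains was lower and 3 did not pass. Cd247 encodes the zeta chain, which carries most of the receptor's signalling motifs and limits its assembly. Its log2 values were 8.97, 8.73 and 8.97 in KO, against 9.43, 9.29 and 9.24 in WT. No KO array reached a WT array, and the log2 difference was -0.43 (SE 0.10, limma adjusted p = 0.045), a 1.35-fold fall. Probe sets of like signal had a median difference of -0.13, and less this the difference was -0.30. Of the 6 fits that left out an array, the one without WT array 3 kept the call (-0.47). It was lost without KO array 1 (-0.47), KO array 2 (-0.35), KO array 3 (-0.47), WT array 1 (-0.38) or WT array 2 (-0.44), and after quantile normalization (-0.34, limma adjusted p = 0.069). Cyclic loess normalization, testing all probe sets and a replicate block lost it too (limma adjusted p = 0.076, 0.054 and 0.054).

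The 3 CD3 chain genes lie together on chromosome 9, where the starts of Cd3g and Cd3d are 1338 bases apart, and none of them passed. Cd3e had values of 10.98, 11.11 and 10.93 in KO and 11.09, 10.77 and 10.49 in WT, and the genotypes overlapped (log2 difference 0.22, 95% interval -0.10 to 0.54). Cd3d differed by 0.17 (95% interval -0.06 to 0.40) and Cd3g by -0.03 (95% interval -0.24 to 0.18).

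Of 3 measured tyrosine kinase genes, Txk was the one called. It encodes a TEC-family kinase, also called RLK, that phosphorylates phospholipase C-gamma1 in T cells. Txk had 10.70, 10.78 and 10.64 in KO, against 9.86, 9.73 and 9.75 in WT. Each KO array was above every WT array, and the log2 difference of 0.92 (SE 0.09, limma adjusted p = 0.0011) is a 1.90-fold rise. It was called in all 16 alternatives run, with differences of 0.82 to 0.99.

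Zap70, the kinase that binds the phosphorylated receptor, had 9.12, 9.01 and 9.02 in KO and 8.87, 8.57 and 8.77 in WT. These groups did not overlap either, but the difference of 0.31 (95% interval 0.08 to 0.54) did not pass (limma adjusted p = 0.11). Cyclic loess normalization gave 0.42 and a call (limma adjusted p = 0.048). The SRC-family kinase gene Fyn differed by 0.07 (95% interval -0.15 to 0.28), with overlapping groups.

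Of 7 adaptors, 3 rose, none fell at the threshold, and 6 of 7 differences were positive, with a median of 0.34. Grap2 encodes GADS, which bridges SLP-76 to LAT. It had 10.87, 10.81 and 10.89 in KO, against 10.39, 10.29 and 10.23 in WT. The KO arrays were all higher, by 0.55 (SE 0.09, limma adjusted p = 0.0096) or 1.47-fold, and the call was made in all 16 alternatives (0.45 to 0.60).

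Tespa1 encodes a thymocyte protein needed in mice for efficient positive selection. Its KO values, 10.17, 10.16 and 10.19, were almost equal to one another, and its WT values were 9.80, 9.73 and 9.38. The genotypes did not overlap, and the log2 difference was 0.54 (SE 0.12, limma adjusted p = 0.033). WT array 3 held the lowest value, and without it the difference was 0.41 and still called. The call was lost without KO array 1 (0.54), KO array 2 (0.54), KO array 3 (0.53) or WT array 2 (0.58), and after median centring (0.43, limma adjusted p = 0.067).

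Themis, whose product binds GRB2 and sets the threshold of the selecting signal, had 12.14, 12.15 and 12.21 in KO, against 11.92, 11.70 and 11.57 in WT. The WT arrays were again the more spread ones, and all lay below the KO arrays (log2 difference 0.43, SE 0.11, limma adjusted p = 0.047). Of the 6 fits that left out an array, the one without WT array 1 kept the call (0.53). It was lost without WT array 2 (0.42), WT array 3 (0.36), KO array 1 (0.45), KO array 2 (0.44) or KO array 3 (0.41), and after median centring (0.33) or cyclic loess normalization (0.41). Testing all probe sets and a replicate block lost it too (limma adjusted p = 0.057 and 0.063).

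Lcp2, the gene of SLP-76 itself, came close to the threshold. It had 11.24, 11.20 and 11.24 in KO, against 10.95, 10.88 and 10.82 in WT, a log2 difference of 0.34 with no overlap (95% interval 0.15 to 0.54, limma adjusted p = 0.051). It passed under 4 of the 16 alternatives, namely cyclic loess normalization (limma adjusted p = 0.035), dim probe sets left out (0.024), a trended prior (0.0031) and array weights (0.033). Lat differed by 0.06 (95% interval -0.14 to 0.26), with overlap. The GRB2 gene differed by 0.11 with overlap. Nck1, encoding an adaptor to the actin machinery, had 8.09, 7.94 and 8.02 in KO and 8.21, 8.22 and 8.12 in WT. It was lower without overlap by a small margin (-0.17, 95% interval -0.37 to 0.04) and not called. Probe sets of like signal had the same median difference, -0.17. The difference between any pair of these adaptor genes was not tested.

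None of the 5 genes of costimulation and membrane effectors passed (limma, 1 at an unadjusted p under 0.05). Was encodes WASP, which starts actin branching at the contact site. It had 8.77, 8.75 and 8.83 in KO and 8.53, 8.47 and 8.56 in WT, which did not overlap (log2 difference 0.27, limma adjusted p = 0.10). After quantile normalization its difference was 0.39 and passed (limma adjusted p = 0.045). The exchange factor gene Vav1 had 10.45, 10.32 and 10.45 in KO and 10.31, 10.20 and 10.21 in WT, a narrow gap of genotypes with a difference of 0.17. The costimulatory receptor gene Cd28, phospholipase gene Plcg1 and Ras exchange factor gene Sos1 differed by -0.02, -0.04 and -0.15, with overlap in each case. For Cd28 the 95% interval ran from -0.38 to 0.33, so these arrays do not exclude changes of that size.

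In the NF-kB branch 0 of 3 genes passed (limma, 1 at an unadjusted p under 0.05). Prkcq encodes PKC-theta, the diacylglycerol-activated kinase at the head of this branch. It had tightly grouped values of 10.11, 10.12 and 10.08 in KO, against 9.78, 9.77 and 9.82 in WT. The genotypes were well apart for their spread, by 0.31 (95% interval 0.12 to 0.50, limma adjusted p = 0.061), which did not pass. The same 4 alternatives as for Lcp2 called it, with limma adjusted p of 0.034, 0.028, 0.012 and 0.039 in that order. Bcl10 differed by -0.11 with overlap.

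Malt1, the paracaspase gene of the same complex, had 8.40, 7.60 and 8.47 in KO and 8.76, 8.68 and 8.42 in WT. Its low value came from KO array 2, the array with the raised neutrophil markers, and the part of those cells in it was not tested. The log2 difference was -0.47 (95% interval -0.93 to 0.00, limma adjusted p = 0.20) with that array and -0.19 without it.

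None of the 6 measured genes of the calcium and NFAT branch passed (limma, 1 at an unadjusted p under 0.05), and 4 of 6 differences were negative. Nfatc2 encodes the transcription factor NFAT1. It had 7.30, 7.42 and 7.43 in KO, against 7.07, 6.83 and 7.06 in WT. The groups did not overlap, and the difference of 0.40 (95% interval 0.17 to 0.63, limma adjusted p = 0.052) was just outside the threshold. It passed in 6 of the 16 alternatives, among them quantile normalization (0.51, limma adjusted p = 0.033) and the fit without WT array 3 (0.44). Nfatc3, encoding a related factor, differed by -0.08 with overlap.

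The calcium channel gene Orai1 differed by 0.24 and the calcium sensor gene Stim1 by -0.09. The calcineurin subunit genes Ppp3ca and Ppp3cb differed by -0.20 and -0.13. Genotypes overlapped for all 4.

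**Figure D2:**
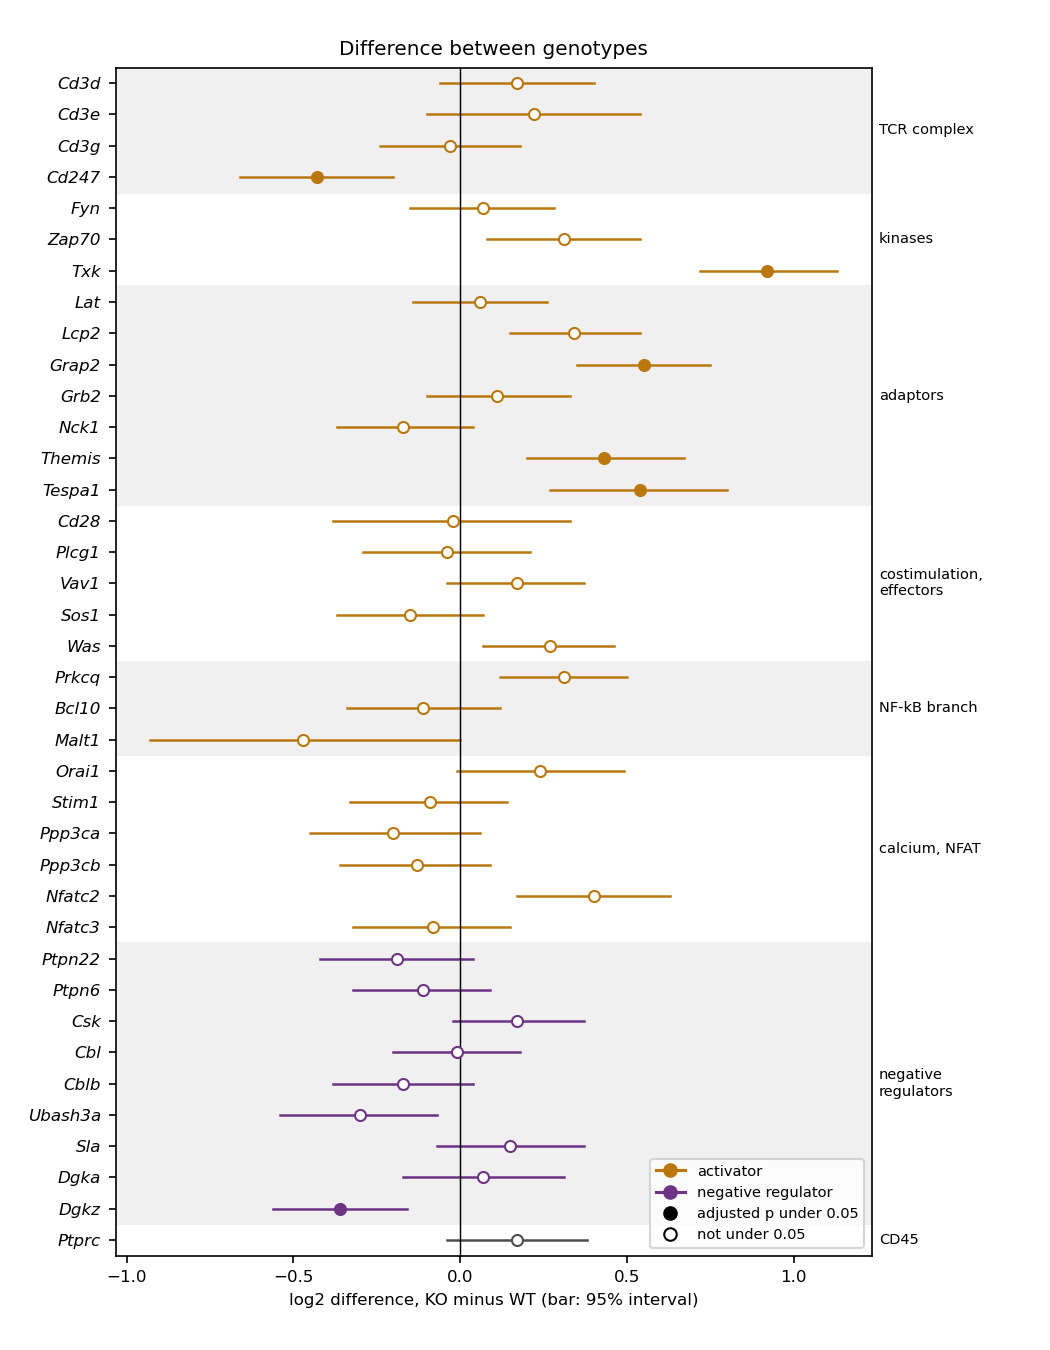
Log2 difference, KO minus WT (x axis), of each gene with its 95% interval from limma, by role and side; filled points passed at an adjusted p under 0.05. The 4 called rises, from 0.43 to 0.92, lie among the kinases and adaptors, and no gene of the NF-kB or the calcium and NFAT branch is filled.

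Of the 9 negative regulators, read from their brightest probe sets, 0 were called higher and 1 lower (limma, 2 at an unadjusted p under 0.05). The 1 was Dgkz, whose probe sets disagreed. It encodes diacylglycerol kinase zeta, which removes the lipid that activates PKC-theta and RasGRP1. Its brighter probe set had 10.15, 10.11 and 10.19 in KO, against 10.58, 10.43 and 10.53 in WT. All KO arrays were lower, by -0.36 on the log2 scale (SE 0.09, limma adjusted p = 0.048). The call was lost without KO array 1 (-0.36), KO array 2 (-0.34), KO array 3 (-0.38), WT array 1 (-0.33), WT array 2 (-0.40) or WT array 3 (-0.35), and after quantile normalization (-0.35, limma adjusted p = 0.054). Cyclic loess normalization, testing all probe sets and a replicate block lost it too (limma adjusted p = 0.083, 0.058 and 0.069).

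A further probe set of Dgkz went the other way. It had 6.07, 6.22 and 6.14 in KO and 5.61, 5.76 and 5.64 in WT, again with no overlap, and was higher by 0.47 (SE 0.09, limma adjusted p = 0.021). Leaving out each array in turn gave 0.43 to 0.52 and kept the call in 3 of 6 fits (limma adjusted p up to 0.083). Dgkz is the 1 gene of the list with more than 1 probe set, and its 2 probe sets were called in opposite directions. Their mean differed by 0.06. The transcripts that each probe set detects were not analysed here, and the gene is given no direction.

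The other 8 negative regulators did not pass. Ubash3a, encoding a suppressor of TCR signalling that binds CBL, had 8.80, 8.73 and 8.66 in KO, against 9.15, 8.87 and 9.08 in WT, lower without overlap (-0.30, 95% interval -0.54 to -0.07, limma adjusted p = 0.11). The median difference of probe sets of like signal was -0.13, and quantile normalization took Ubash3a to -0.20 (limma adjusted p = 0.34). The ubiquitin ligase gene Cblb had 8.15, 7.97 and 7.92 in KO and 8.19, 8.19 and 8.18 in WT, also without overlap. Its difference of -0.17 equalled the median difference of probe sets of like signal. Its relative Cbl differed by -0.01 (95% interval -0.20 to 0.18).

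Among the phosphatases, Ptpn6, encoding SHP-1, had 9.76, 9.82 and 9.65 in KO and 9.87, 9.86 and 9.84 in WT, lower on each KO array by a small amount (-0.11). Ptpn22, whose product dephosphorylates LCK and ZAP-70, differed by -0.19 with overlap. Csk, the gene of the kinase that phosphorylates the inhibitory tyrosine of SRC-family kinases, ran the other way, with 10.14, 10.22 and 10.13 in KO and 9.99, 9.95 and 10.03 in WT (0.17, 95% interval -0.02 to 0.37). The adaptor gene Sla and the diacylglycerol kinase gene Dgka differed by 0.15 and 0.07 with overlap. Ptprc, the CD45 gene kept apart from both sides, had 12.02, 12.08 and 11.97 in KO and 11.94, 11.89 and 11.74 in WT, higher without overlap by 0.17 (95% interval -0.04 to 0.38) and not called.

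Set side by side, the median log2 difference was 0.09 over the 28 measured activators and -0.11 over the 9 negative regulators, against -0.09 over the 11705 brighter probe sets. Dgkz entered these figures by its brighter probe set, although the gene is given no direction. With its 2 probe sets averaged, the median of the negative regulators was -0.01. Of the activators 16 of 28 differences were positive, and of the negative regulators 3 of 9. Of the brighter probe sets 33.2% were positive. After subtracting from each gene the median difference of probe sets of like signal, in 10 bins, the medians were 0.16 and -0.00.

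Without overlap between genotypes, 10 activators were higher and 2 lower, and 1 negative regulator was higher and 4 lower. The 4 include Dgkz by its brighter probe set. Over all probe sets 30.0% did not overlap, 13.5% higher and 16.5% lower. Among the brighter probe sets 9.50% were higher and 28.9% lower. Each side held both directions: Cd247 fell among the activators, and Csk was higher without overlap among the negative regulators. The medians of both sides moved with the scaling of the arrays, to -0.01 and -0.22 after median centring and to 0.19 and -0.04 after cyclic loess normalization, while the median of the activators stayed above the negative regulators in each of these. No test of the sides was made.

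**Figure D3:**
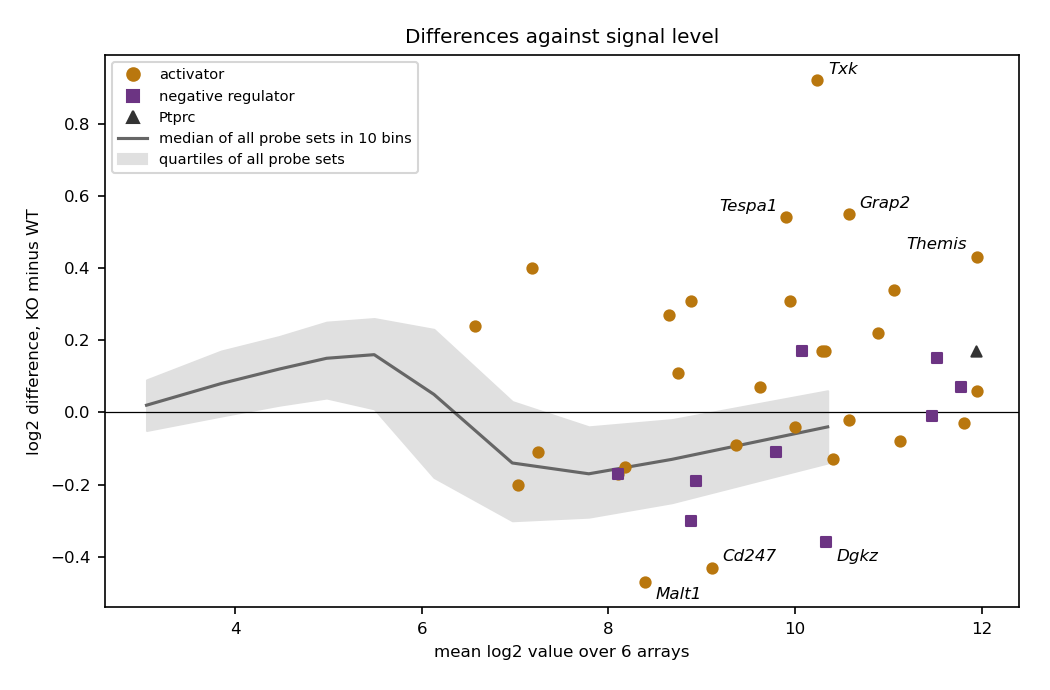
Log2 difference, KO minus WT (y axis), against the mean log2 value over the 6 arrays (x axis) for activators, negative regulators and Ptprc; the line and the band are the median and quartiles of all probe sets in 10 bins of signal. The 4 called rises sit above the band, Cd247 and Dgkz below it, and the bin medians between -0.17 and 0.16 show how the background moved with signal.

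The arrays of a genotype also differed among themselves. Relative to each gene's mean over the 6 arrays, the median activator lay at 0.10, -0.00 and 0.08 on KO arrays 1 to 3 and at 0.01, -0.12 and -0.11 on WT arrays 1 to 3. WT array 1 lay level with KO array 2, so the genotypes met there. The median negative regulator lay at 0.00, 0.01 and -0.13 in KO and at 0.08, -0.01 and 0.04 in WT, and the genotypes overlapped.

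Other genes of the pathway gave a mixed picture. Of 42 further activators with a probe set, 2 were higher and 5 lower in KO, or 16.7% called. This compares with 5.79% over all probe sets and 9.06% among the brighter ones, to which these genes belong. Vav3, encoding an exchange factor related to VAV1, had 7.04, 7.06 and 6.90 in KO, against 6.30, 5.98 and 6.02 in WT, and rose by 0.90 (SE 0.11, limma adjusted p = 0.0027). It was called in all 16 alternatives. Rel, the NF-kB subunit gene, rose by 0.46 (SE 0.11), a call lost without any 1 of the 6 arrays (0.38 to 0.53, limma adjusted p up to 0.14).

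The falls were those of the osmotic stress factor gene Nfat5, the costimulator gene Icos, the calcineurin subunit gene Ppp3cc, the adhesion receptor gene Cd2 and the adaptor gene Shc1. Nfat5 had 7.76, 7.57 and 7.65 in KO, against 8.39, 8.35 and 8.18 in WT, and differed by -0.65 in all 16 alternatives past the threshold (-0.75 to -0.52). Icos differed by -0.59 and was lost as a call without KO array 2 (-0.53). Ppp3cc (-0.53) lost its call without KO array 2 (-0.39), KO array 3 (-0.56), WT array 1 (-0.46) or WT array 2 (-0.54). Cd2 (-0.49) lost its call without KO array 2 (-0.43), KO array 3 (-0.53), WT array 1 (-0.50) or WT array 2 (-0.52), and Shc1 (-0.44) kept it only without WT array 3 (-0.44 over that fit, -0.49 to -0.40 over all 6). Ppp3cc and Shc1 were not called after quantile normalization either (limma adjusted p = 0.082 and 0.085).

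Of 34 further negative regulators with a probe set, 2 were higher and none lower. In either direction these 5.88% compare with 5.79% over all probe sets and 9.06% among the brighter ones, to which most of these genes belong. By direction, 1.75% of all probe sets were called higher and 4.04% lower. Among the brighter ones the shares were 2.10% and 6.95%. Pag1 encodes a membrane adaptor that recruits CSK. It averaged 9.87 ± 0.17 in KO and 9.15 ± 0.08 in WT (SD, n = 3 each), with no overlap, and rose by 0.72 (SE 0.11, limma adjusted p = 0.0070), called in all 16 alternatives. Inpp5d, the gene of the lipid phosphatase SHIP-1, rose by 0.44 (SE 0.10). The call was lost without KO array 1 (0.42), KO array 2 (0.47), KO array 3 (0.43) or WT array 2 (0.39), and after median centring. The median log2 differences of the 2 lists were -0.06 for activators and -0.12 for negative regulators, against 0.02 over all probe sets and -0.09 over the brighter ones.

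**Figure D4:**
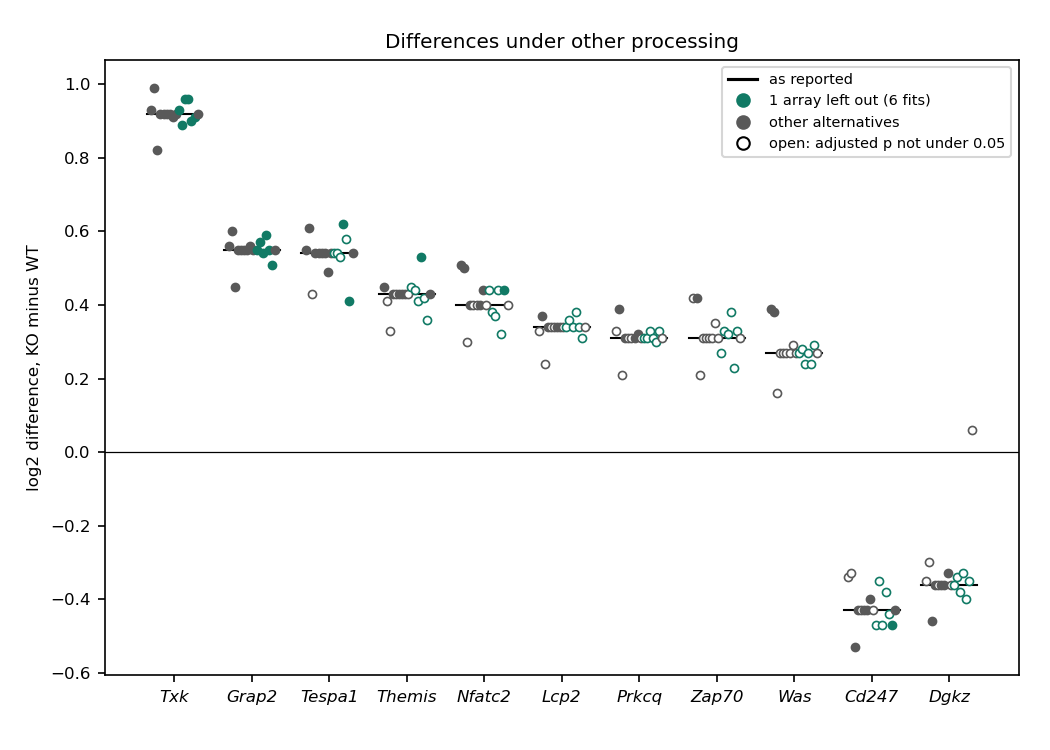
Log2 difference, KO minus WT (y axis), of 11 genes as reported (line) and under 16 alternatives, with green points for fits without 1 array and grey points for other processing; open points were not under an adjusted p of 0.05. Txk and Grap2 are filled throughout, the remaining genes change between filled and open, and the isolated Dgkz point at 0.06 is the mean of its probe sets.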

How the data were processed

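The authors deposited log2 probe set values, 1 column per array, and that they are log2 was read from their range, 1.94 to 13.98. RNA was labelled with an Affymetrix whole-transcript kit, per the labels' protocols. The sources used here name no background correction, normalization or probe summary. Gene symbols came from the array platform's annotation in GEO, and for each gene the one with the highest mean over 6 arrays was used. No gene of the list had a probe set with several symbols.

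The 23410 probe sets with a gene symbol were tested with limma 3.58.1 (lmFit, eBayes) in R 4.3.3, two-sided, with Benjamini-Hochberg adjustment and a threshold of 0.05. Differences are KO minus WT, with SE over 3 arrays each, and the number of arrays limits the precision (median SE 0.109). With 3 arrays a group, an exact permutation test has 0.1 as its smallest p and was not run. The fit was tested on simulated data.

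The 40 genes, their roles and the lists were chosen with earlier results of these data known. By the rule written for named genes, values on every array are given for those of the 40 genes that were called or did not overlap, and up to 4 called genes a direction are named from the other pathway lists. Cd3e, Malt1, Shc1 and the named stage markers were added after their values were seen. Alternatives were quantile and cyclic loess normalization, median centring, leaving out dim probe sets, testing all probe sets or those with 1 symbol, averaging the probe sets of a gene, a trended and robust prior, weighting arrays, each array left out in turn, and a block for the replicate number. Promoter sequences are from RefSeq (GRCm38.p6).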

Additional observations from a re-analysis of the deposited data

How the results depend on the processing

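The calls of Txk and Grap2 were made under all 16 alternatives, and no other member's was. Leaving out each array gave 2 to 5 members called, 2 to 5 activators, 0 to 0 negative regulators, 3 to 9 other pathway genes and 474 to 1946 probe sets in all, with medians of 0.08 to 0.13 for activators and -0.15 to -0.07 for negative regulators. Cyclic loess normalization called 8 activators (median 0.19) and 0 negative regulators, and quantile normalization 6 members, all higher, and 0 negative regulators. Median centring called 3 activators and 2060 probe sets, 9.56% of them higher against 30.2% as deposited, with medians of -0.01 and -0.22, and moved the median of all probe sets to -0.08. Leaving out dim probe sets, the trended prior and array weights each called 8 activators, and array weights 2285 probe sets. Testing all probe sets called 3 members, 3 activators and 0 negative regulators. The replicate block called the same numbers, 3, 3 and 0. Deviations of same-numbered arrays had correlations of 0.25, -0.07 and -0.03, and those of other KO and WT arrays ran from -0.34 to 0.32. With 3 arrays a group this cannot decide whether the numbers mark pairs, and they were not taken as pairs. With probe sets averaged per gene Dgkz turned to 0.06, leaving 0 negative regulators called and their median at -0.01; averaging 2 probe sets of opposite sign gives this by construction. The causes of the other changes were not tested.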

Other observations

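Families of the called genes were looked up after the values were seen, so the values below are a description. Grap, the nearest relative of Grap2 and Grb2 among SH3-SH2-SH3 adaptors, had log2 values of 9.55, 9.64 and 9.61 in KO, against 8.75, 8.77 and 8.77 in WT. It rose by 0.84 (SE 0.09, limma adjusted p = 0.0013) and was called in all 16 alternatives (0.74 to 0.94). Tec, a TEC-family kinase gene whose annotated span lies 2726 bases from that of Txk on chromosome 5, had 5.88, 6.07 and 5.84 in KO and 6.51, 6.19 and 6.33 in WT. It differed by -0.41 (95% interval -0.66 to -0.16, limma adjusted p = 0.063), opposite in sign to Txk, and Btk and Bmx differed by 0.15 and -0.02.

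Syk, the relative of Zap70 that is prominent at earlier thymocyte stages, had 6.89, 6.50 and 6.69 in KO, against 7.24, 7.13 and 7.15 in WT. It fell by 0.48 (limma adjusted p = 0.041), a call made in 1 of the 6 fits without an array, that without KO array 1. Among diacylglycerol kinases Dgkd rose by 0.38 (limma adjusted p = 0.044, called in 0 of those 6 fits) and Dgke fell by 0.56 (limma adjusted p = 0.014, called in 3 of them).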
